A study of Mus musculus with 8 samples.

Results

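Haemoglobin and red cell RNA was examined in whole-aorta RNA-seq through 7 mouse genes, taken by symbol from the deposited table of assembled loci. They are the adult alpha globin genes Hba-a1 and Hba-a2, the adult beta globin genes Hbb-bs and Hbb-bt, Alas2 (the red cell form of the first enzyme of haem synthesis), Slc4a1 (band 3, the chloride and bicarbonate exchanger of the red cell membrane) and Epb42 (protein 4.2, which ties band 3 to the membrane skeleton). A symbol that named more than 1 locus was read from the row with the largest sum of counts. The 7 genes were 7 of 41186 gene names and sat on 5 of 48607 loci, because both alpha genes shared 1 locus and both beta genes shared another. Of the 5 loci, 3 (holding 5 of the 7 genes) reached 1 FPKM in at least 3 libraries and were tested among 20506 loci. Slc4a1 reached 1 FPKM in 1 library and Epb42 in 0.

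The study asked whether loss of natriuretic peptide receptor C (NPRC, encoded by Npr3) changes the atherosclerotic aorta. Every mouse lacked apolipoprotein E and had eaten a Western diet, for 12 weeks by the study's methods, and the comparison was between ApoE-/- mice and NPRC-/-ApoE-/- littermates. NPRC was removed from the whole body by a CRISPR frameshift in exon 1, so the knockout is not restricted to 1 cell type, and the study's methods give male sex and an age of 8 weeks for ApoE-/- mice that were bought, without stating either for the sequenced littermates. Poly(A) RNA of the entire aorta was sequenced. By title, 5 libraries were ApoE-/- (1 to 5) and 3 were NPRC-/-ApoE-/- (1 to 3). The genotype entered for each sample gives the same genotype as the title in 4 libraries. In the remaining 4 it is the opposite one, reading Nprc-/-Apoe-/- where the title is ApoE-/- 4 or 5, and Apoe-/- where it is NPRC-/-ApoE-/- 1 or 2. The main comparisons of the member loci are therefore given by title and by genotype entry, and a library is called by its title. For some other genes, single values are given by title only.

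Mature mammalian red cells have no nucleus. Reticulocytes, the young red cells that enter the blood, still carry messenger RNA, most of it for the alpha and beta chains that pair in haemoglobin. Globin and Alas2 transcription depends on erythroid factors of the GATA and KLF families, and globin RNA is the usual trace of blood in bulk tissue libraries. Since the libraries are bulk RNA, fewer red cells and less RNA per red cell cannot be told apart.

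The 4 globin genes stood out in sequence as pairs of near copies. The coding sequences of Hba-a1 and Hba-a2 differed at 1 of 426 bases, and those of Hbb-bs and Hbb-bt at 1 of 441. Reads from the coding part can therefore hardly be split between the genes of a pair, and the table held 1 value for each pair. The alpha locus ran from chr11:32283511-32297255 on the plus strand of GRCm38 and also took in Hbq1b, a theta globin gene. The beta locus ran from chr7:103812524-103827928 on the minus strand.

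Promoter sequences are shown for genes of the alpha, beta and Alas2 loci, since these loci varied together between libraries. Whether the promoters play a part in that was not tested. They are the 250 bases before the RefSeq start (GRCm38.p6), written along the gene, with motif matches on either strand in capitals. The motifs were GATAA, the core of a site for GATA factors, then CACCC, the core of a site for KLF factors, and lastly the box CCAAT. Of the 7 genes, 6 were in the RefSeq table and Slc4a1 was not. Hba-a2 is at chr11:32296242-32296491 (plus), Hbb-bs at chr7:103827929-103828178 (minus), Hbb-bt at chr7:103813924-103814173 (minus) and Alas2 at chrX:150547167-150547416 (plus). GENCODE M21 starts each of these genes further upstream than RefSeq, so the ends of the windows next to the start lie inside the gene in that annotation. For Hbb-bs, with its GENCODE start at chr7:103828096, that end is most of the window and includes the marked CACCC and CCAAT. For Alas2 it includes all the CACCC matches. For Hbb-bt it includes the CCAAT match nearest the start and part of the next.
Hba-a2: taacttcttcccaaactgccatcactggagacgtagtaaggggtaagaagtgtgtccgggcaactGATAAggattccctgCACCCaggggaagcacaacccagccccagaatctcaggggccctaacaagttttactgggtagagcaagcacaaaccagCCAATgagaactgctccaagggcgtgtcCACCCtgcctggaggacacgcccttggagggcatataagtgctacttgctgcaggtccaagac
Hbb-bs: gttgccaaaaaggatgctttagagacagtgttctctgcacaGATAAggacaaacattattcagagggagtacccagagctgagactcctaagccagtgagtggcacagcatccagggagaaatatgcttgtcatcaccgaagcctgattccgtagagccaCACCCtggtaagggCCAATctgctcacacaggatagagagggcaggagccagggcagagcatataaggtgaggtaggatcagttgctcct
Hbb-bt: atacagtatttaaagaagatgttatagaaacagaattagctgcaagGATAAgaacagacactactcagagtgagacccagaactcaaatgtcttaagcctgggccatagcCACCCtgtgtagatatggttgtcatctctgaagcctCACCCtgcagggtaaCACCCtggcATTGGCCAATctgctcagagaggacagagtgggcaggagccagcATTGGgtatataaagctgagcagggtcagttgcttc
Alas2: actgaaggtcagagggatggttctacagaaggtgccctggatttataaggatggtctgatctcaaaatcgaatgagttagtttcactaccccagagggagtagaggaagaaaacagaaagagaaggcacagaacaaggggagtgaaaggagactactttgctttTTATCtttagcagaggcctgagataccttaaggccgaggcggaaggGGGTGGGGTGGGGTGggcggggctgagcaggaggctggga
The windows of Hba-a1 and Hba-a2 were identical over the 247 bases they share once shifted by 3 bases, whereas those of Hbb-bs and Hbb-bt were identical at 178 of 257 aligned positions (69.3%). All 4 globin windows held all the motifs. The Alas2 window held GATAA and CACCC on the other strand, the latter in 3 adjoining copies, and no CCAAT, and the Epb42 window held GATAA alone. Among 32851 promoter windows of the same length, 22.6% held GATAA, 52.0% held CACCC, 33.8% held CCAAT and 3.5% held all of them. A match of letters is not a binding site.

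The alpha globin locus was at 228.7, 605, 65.8, 80.5 and 388 FPKM (fragment counts corrected for transcript length and sequencing depth) in ApoE-/- 1 to 5, and at 83.5, 44.5 and 219.6 FPKM in NPRC-/-ApoE-/- 1 to 3. The beta globin locus was at 340.4, 1193, 105.9, 241 and 484 FPKM in ApoE-/- 1 to 5, and at 196, 65.6 and 340.5 FPKM in NPRC-/-ApoE-/- 1 to 3. ApoE-/- 2 was highest and NPRC-/-ApoE-/- 2 lowest for both loci, and the titled groups overlapped. From the lowest to the highest library, the alpha level differed 13.6-fold and the beta level 18.2-fold. The globin loci together took 0.0254% to 0.392% of a library's counts (median 0.0968%, n = 8).

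**Figure D1:**
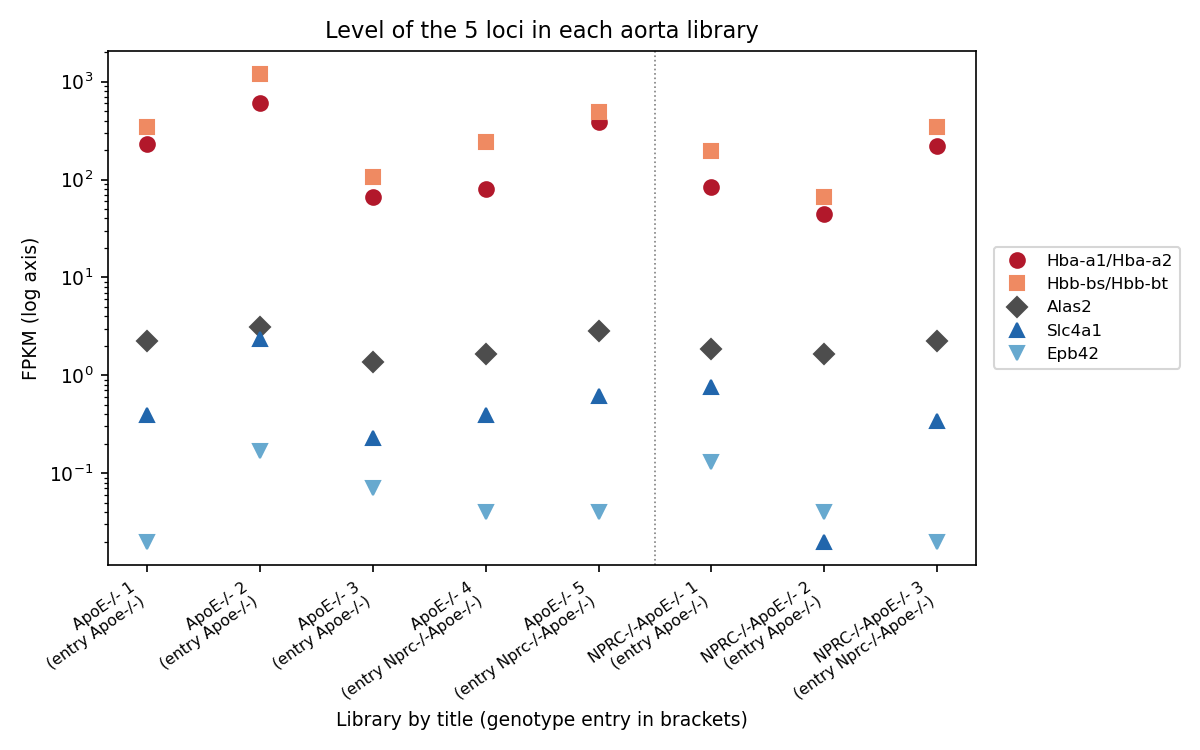
FPKM on a log axis (y) of the 5 loci (symbols) in each of the 8 libraries (x), named by title with the genotype entry in brackets; the dotted line divides the titles. The alpha and beta globin loci sat between 44.5 and 1193 FPKM, far above the other 3 loci, and were highest in ApoE-/- 2.

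Alas2 sat much lower and varied less than the globins. Its locus was at 2.24, 3.14, 1.38, 1.66 and 2.84 FPKM in ApoE-/- 1 to 5, and at 1.84, 1.65 and 2.22 FPKM in NPRC-/-ApoE-/- 1 to 3. The highest library was 2.28-fold above the lowest, and all 3 NPRC-/-ApoE-/- libraries lay inside the ApoE-/- range.

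The Alas2 row did not correspond to the annotated messenger RNA. It covered chrX:150535763-150570638 on the plus strand, beginning 11612 bases before the GENCODE M21 start of Alas2 and overlapping Apex2, a gene of the opposite strand. Its counts and FPKM implied a transcript length of 36.8 kb, which is 15.3 times the 2.40 kb of annotated Alas2 exons and 1.06 times the whole span of the locus. The same ratio to annotated exons was 1.36 for the alpha locus, and 1.2 for each of the beta, Slc4a1 and Epb42 loci. Its median over 67 tested loci with an Ensembl identifier was 1.21. The FPKM of Alas2 is thus computed over a far longer stretch than its messenger RNA, and the share of its 3885 to 8036 counts that came from Alas2 exons is not known. The main Apex2 row, on the other strand, was at 1.02 to 3.09 FPKM, and its Pearson r with the Alas2 row was -0.43 (n = 8, a description).

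The membrane genes were at low levels, and Epb42 was near the detection limit in every library. Slc4a1 was at 0.39, 2.34, 0.23, 0.39 and 0.62 FPKM in ApoE-/- 1 to 5, and at 0.76, 0.02 and 0.34 FPKM in NPRC-/-ApoE-/- 1 to 3. These values rest on 8 counts in NPRC-/-ApoE-/- 2 and 921 in ApoE-/- 2, a 117-fold range of FPKM. Both extremes were the libraries that were also lowest and highest for globin. Epb42 was at 0.02, 0.17, 0.07, 0.04 and 0.04 FPKM in ApoE-/- 1 to 5, and at 0.13, 0.04 and 0.02 FPKM in NPRC-/-ApoE-/- 1 to 3. With 10 to 74 counts per library, differences in Epb42 were hardly detectable at this depth. The Slc4a1 locus is at chr11:102348824-102365280 and the Epb42 locus at chr2:121017891-121037072, both on the minus strand of GRCm38.

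Library totals were between 62969165 and 86693276 counts, and a locus that includes Rn7s1 took between 1.32% and 4.62% of them. Npr3, the targeted gene, was at 0.62 to 1.69 FPKM under the title ApoE-/- and at 1.13 to 1.39 FPKM under NPRC-/-ApoE-/-. RNA can still be read from an allele with a frameshift, so this level does not show which label is right. Sequencing batches are not given in the labels. At an adjusted p-value under 0.05, edgeR called 0 loci by title and 0 by genotype entry, with 2797 and 269 at an unadjusted p-value under 0.05, whereas DESeq2 called 650 and 9, and limma 2 and 0.

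Levels of the members did not separate the groups. By the study's criterion (more than 2-fold higher, or under 0.5 of the level, at an unadjusted p-value below 0.05), edgeR called 0 of the 3 tested member loci by title, where 3.47% of all tested loci were called, and 0 of 3 by genotype entry, where 0.463% were. None of the 3 had an unadjusted p-value under 0.05, and DESeq2 and limma also called 0. The groups overlapped for all 5 loci under both labels, while they did not overlap for 7.41% of tested loci by title and 1.21% by genotype entry.

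By title, the log2 fold change in NPRC-/-ApoE-/- over ApoE-/- was -1.15 ± 0.79 (SE) for the alpha locus, with a 95% interval from -2.93 to 0.64 (edgeR, adjusted p = 0.54). Mean alpha levels were 274 ± 227 FPKM (SD, n = 5) and 116 ± 91.9 FPKM (SD, n = 3). For the beta locus it was -1.16 ± 0.76 (SE), from -2.88 to 0.57 (edgeR, adjusted p = 0.52), with means of 473 ± 426 FPKM (SD, n = 5) and 200.8 ± 138 FPKM (SD, n = 3). The SD was close to the mean in the ApoE-/- group, and both intervals reach from a large deficit to a modest excess. Exact two-sided permutation tests on log2 CPM, whose smallest possible p is 0.036 with 5 against 3 libraries, gave p = 0.321 for alpha and p = 0.286 for beta.

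By genotype entry, the differences were small beside the spread, and their sign depended on the measure. The mean log2 CPM was higher in the double knockout by 0.60 for alpha and 0.64 for beta, and limma on log2(FPKM + 1) gave 0.57 and 0.61. In edgeR, which fits the counts themselves, the alpha locus had a log2 fold change of 0.18, with a 95% interval from -1.73 to 2.09 (edgeR, adjusted p = 1.00). For the beta locus the value was -0.06, from -1.93 to 1.82 (edgeR, adjusted p = 1.00). Exact permutation tests of the log2 CPM differences gave p = 0.536 for both loci. The globin share of the library was 0.0254% to 0.392% in the 5 libraries entered as Apoe-/- and 0.0657% to 0.202% in the 3 entered as Nprc-/-Apoe-/-, so the latter lay wholly inside the former.

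These values depended on single libraries. Without ApoE-/- 2, the log2 fold changes by title were -0.63 for alpha and -0.48 for beta, and those by genotype entry were 1.13 and 1.03 (edgeR, all with an unadjusted p-value above 0.05). Without NPRC-/-ApoE-/- 3, the values by title were -2.06 and -1.83. In the 4 libraries whose labels match (3 against 1), the differences were 0.16 for alpha, 0.045 for beta and 0.14 for Alas2, as values with no test.

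The log2 fold change of Alas2 was -0.20 (95% interval -0.76 to 0.36) by title and 0.16 (-0.41 to 0.73) by genotype entry, with edgeR adjusted p-values of 0.75 and 1.00. For the row as counted, the interval leaves out changes of more than 2-fold in either direction under both labels. The share of its counts from Alas2 exons is not known, so the interval does not bound the messenger RNA. Slc4a1 and Epb42, fitted with no filter on low values among 44689 loci, had log2 fold changes of -1.02 (-3.17 to 1.13) and 0.02 (-1.65 to 1.69) by title. By genotype entry the values were -0.69 (-2.92 to 1.53) and -1.34 (-2.87 to 0.19). In that fit 5.12% of loci were called by title and 1.76% by genotype entry, and neither membrane gene was among them. Without ApoE-/- 1, however, Epb42 met the criterion by genotype entry (log2 fold change -1.60, unadjusted p = 0.019, adjusted p = 1, edgeR), on 74 counts or fewer per library.

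**Figure D2:**
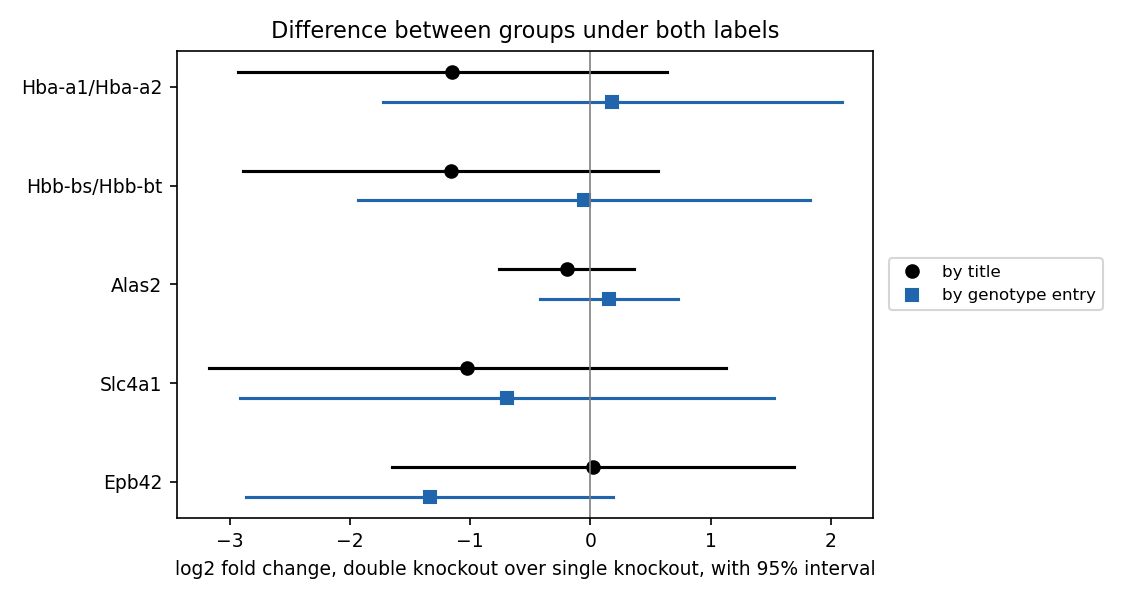
Log2 fold change (x) of each locus (y), NPRC-/-ApoE-/- over ApoE-/-, with its 95% interval from edgeR, by title (black circles) and by genotype entry (blue squares). All 10 intervals cross 0, and the point for the alpha locus changes side between labels, from -1.15 to 0.18.

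What set the globins apart was their spread. Over the 8 libraries, the SD of log2 CPM (counts scaled to a common library size by TMM) was 1.31 for the alpha locus and 1.27 for the beta locus, against a median of 0.34 over all tested loci. Only 509 and 539 of the 20506 tested loci varied more. Within the titled groups the SDs were 1.28 and 1.23, so the spread lay inside the groups. Alas2, at 0.36, was near the median of all loci. Slc4a1 and Epb42 had SDs of 1.84 and 1.02, on at most 921 and 74 counts.

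**Figure D3:**
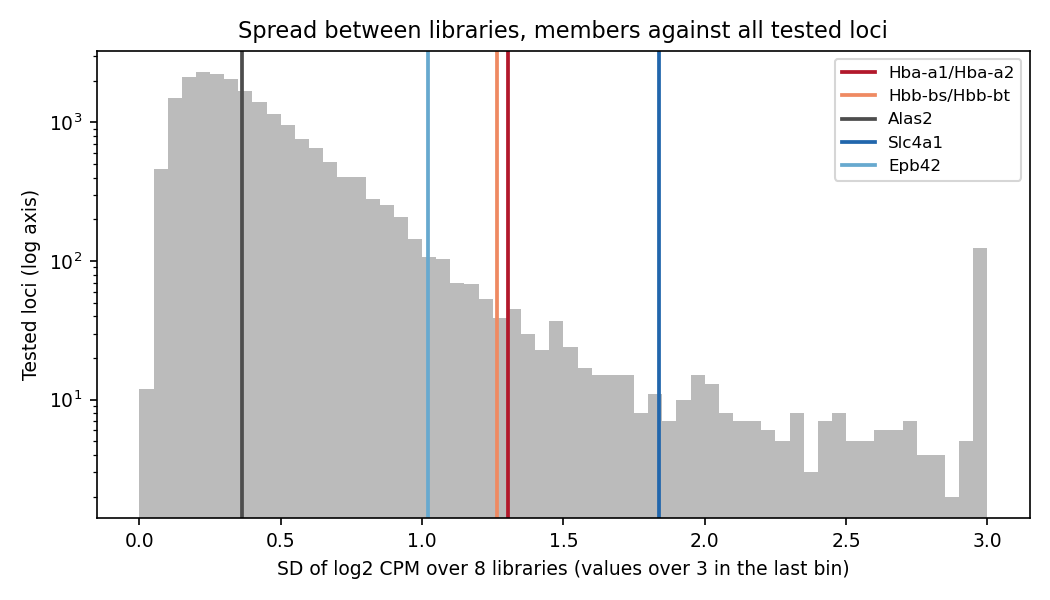
Number of tested loci (y, log axis) by the SD of log2 CPM over 8 libraries (x), with a line for each member locus. The alpha and beta loci, at 1.31 and 1.27, sat in the right tail, and Alas2, at 0.36, near the median of 0.34.

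The alpha and beta loci moved together from library to library. In log2 CPM the Pearson r was 0.948 (exact permutation p = 0.000273, adjusted 0.00109 over 4 loci set against beta), and Spearman's rho was 1 (p = 4.96e-05, the smallest this permutation test can give, adjusted 0.000198). Leaving out ApoE-/- 2 and NPRC-/-ApoE-/- 2, the libraries farthest from the median, gave r = 0.897 (n = 6). Among the 5 libraries titled ApoE-/- r was 0.93, and among the 5 entered as Apoe-/- it was 0.984. The ratio of alpha to beta FPKM was 0.672, 0.507, 0.622, 0.334 and 0.801 in ApoE-/- 1 to 5, and 0.425, 0.679 and 0.645 in NPRC-/-ApoE-/- 1 to 3. By FPKM, beta exceeded alpha in all 8 libraries. In counts, the ratio of alpha to beta was 1.14, 0.863, 1.06, 0.568 and 1.36 in ApoE-/- 1 to 5, and 0.724, 1.16 and 1.10 in NPRC-/-ApoE-/- 1 to 3, above 1 in 5 of 8 libraries. The order of alpha and beta therefore depends on the length used for FPKM, implied as 3.01 kb for the alpha locus and 1.77 kb for the beta locus. On either scale the ratio varied 2.40-fold, where the FPKM levels varied 13.6-fold and 18.2-fold.

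The Alas2 row followed beta globin as closely, over a much narrower range, though the share of its counts from Alas2 exons is not known. Its r with the beta locus was 0.913 (exact permutation p = 0.00109, adjusted 0.00218), its rho was 0.952 (p = 0.00114, adjusted 0.00228), and r was 0.949 without the same 2 libraries. Counts of the Alas2 row came to 5.48% of beta counts in ApoE-/- 2 and to 52.4% in NPRC-/-ApoE-/- 2, the libraries with the most and the least globin. For Slc4a1 r was 0.867 (exact permutation p = 0.0097, adjusted 0.0129) and rho 0.667 (p = 0.0831, adjusted 0.111). It fell to 0.387 without the 2 libraries, so the relation rests on them. For Epb42 r was 0.157 (exact permutation p = 0.71, adjusted 0.71) and rho -0.143 (p = 0.752, adjusted 0.752), and r was -0.702 without the same 2 libraries (exact permutation p = 0.124).

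**Figure D4:**
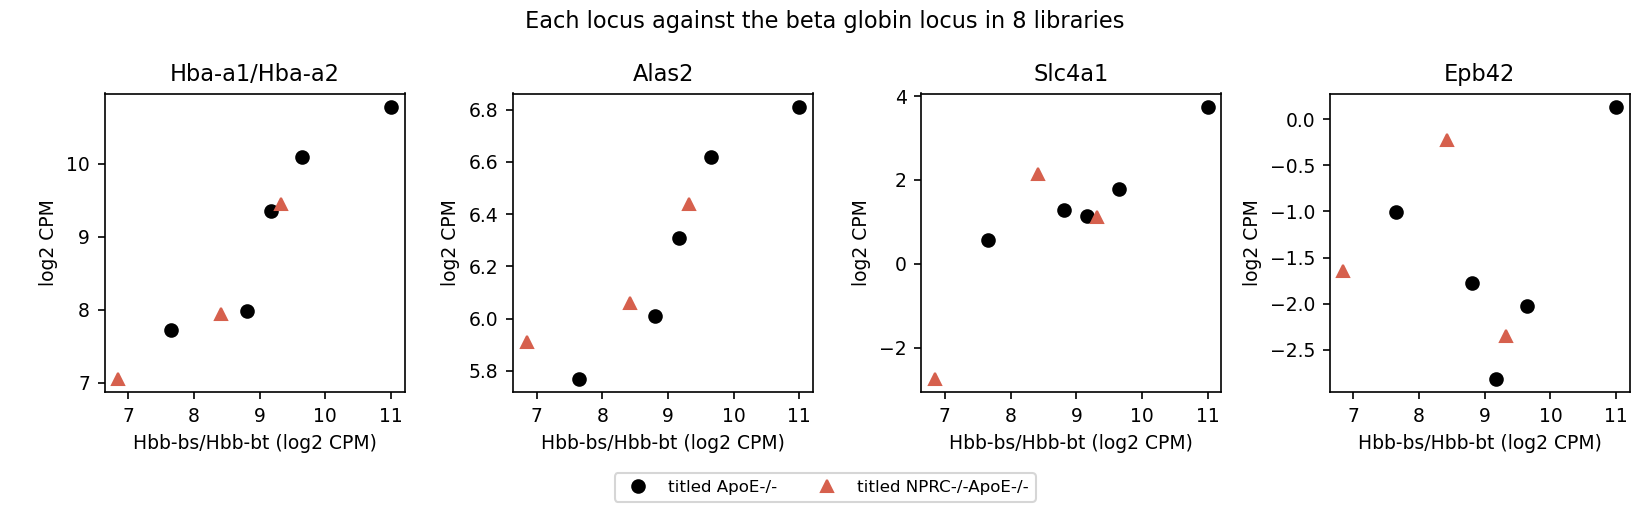
Log2 CPM of each other locus (y) against log2 CPM of the beta globin locus (x) in 8 libraries, black circles titled ApoE-/- and red triangles titled NPRC-/-ApoE-/-. The alpha and Alas2 points rise with beta (r = 0.948 and 0.913), Slc4a1 depends on its lowest and highest point, and Epb42 shows no trend (r = 0.157).

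The table also held rows on the strand opposite to the globin genes. The row opposite Hba-a1 had 81 to 3483 counts, or 0.401% to 3.74% of the counts of both strands. The row opposite Hbb-bt had 0 to 227 counts, at most 0.161%. The libraries were made with dUTP marking, which keeps strand, but whether the counting used it is not given in the sources used here.

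Other globins with a row of their own were absent or low, apart from those of vascular and muscle cells. Hbb-bh1, Hbb-bh2 and Hbb-y were not named in the table, and Hbq1b shared the alpha locus, so their levels are not known. The embryonic gene Hba-x had 0 counts in all 8 libraries, and the theta gene Hbq1a had 4 counts in 1 library and 0 in the others. Cygb, the cytoglobin of fibroblasts and smooth muscle, was at 10.9 to 21.2 FPKM, and the neuronal Ngb stayed under 1 FPKM. Mb, muscle myoglobin, was at 0.09 to 2.65 FPKM, with a log2 fold change of -1.64 by genotype entry (edgeR, unadjusted p = 0.033, adjusted p = 1.00) and 0.74 by title. Mb and Cygb had r of -0.34 and 0.36 with the beta locus, so they did not track the red cell genes.

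Other genes active late in red cell development were read from a list of 26 genes, of which 25 were named in the table and 14 were tested. Their median r with the beta locus was 0.54, against -0.01 over all tested loci, and 4 of the 14 (28.6%) had an r above 0.7, as did 1.31% of all tested loci. Among these, named after their values were seen, were Fech (0.84), which inserts iron into haem, Bpgm (0.75), which makes the phosphate that lowers oxygen affinity, and Slc25a37 (0.70), the mitochondrial iron importer of erythroblasts. Rhag, the Rh-associated glycoprotein of the red cell membrane, was not tested and had 1 to 35 counts per library (chosen after its values were seen). The most abundant genes of the list, Cat, Prdx2 and Slc25a39, are made in many tissues and had r of 0.61, 0.25 and -0.02.

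By title, 3 of the 14 had an unadjusted p-value under 0.05 and were lower, and 1 was higher, where 13.6% of all tested loci had such a p-value (7.13% lower and 6.51% higher). The lower genes were Bpgm (log2 fold change -0.40), Mkrn1 (-0.53) and Isg20 (-0.85), and the higher one was Trim58 (0.92), a ubiquitin ligase of late erythroblasts. Their edgeR adjusted p-values were 0.32 to 0.36. None changed by more than 2-fold and none was called, and by genotype entry 0 of 14 had an unadjusted p-value under 0.05, against 1.31% of all tested loci.

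Of 14 genes of nucleated red cell precursors, 7 stayed under 1 FPKM in every library. The erythroid transcription factors Gata1, Klf1 and Gfi1b had at most 10, 8 and 12 counts in any library, and Nfe2 had 10 to 116. The erythropoietin receptor Epor stayed under 1 FPKM. The other 7 were tested, and Aqp1 (mean 82.2 FPKM) and Cd36 (79.8 FPKM), also genes of endothelium and of fat cells and macrophages, were the most abundant. The tested genes also included the transcription regulators Tal1, Zfpm1 and Lmo2, at means of 1.43, 2.03 and 3.66 FPKM. Tfrc, the transferrin receptor, had a log2 fold change of -0.62 by title (edgeR, unadjusted p = 0.0059, adjusted p = 0.26) and 0.19 by genotype entry. Its r with the beta locus was 0.35.

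All 8 genes of haem synthesis other than Alas2 were tested, and 0 had an unadjusted p-value under 0.05 in edgeR under either label. Urod, Alas1 and Alad were the most abundant, at means of 5.97, 5.77 and 4.17 FPKM. Alas1, the form of the first enzyme used outside red cells, had r = 0.78 with the beta locus over a range of only 4.59 to 7.88 FPKM.

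Genes that clear haemoglobin and haem did not track the globins (median r 0.00 over 11 tested of 13). Hmox1, haem oxygenase 1, was at 20.4, 22.7, 32.6, 31.2 and 12.7 FPKM in ApoE-/- 1 to 5, and at 15.4, 8.79 and 7.74 FPKM in NPRC-/-ApoE-/- 1 to 3. It met the criterion by title (log2 fold change -1.18, edgeR unadjusted p = 0.011, adjusted p = 0.28) but not by genotype entry (-0.18). Blvra, biliverdin reductase A, had a log2 fold change of -0.47 by title (edgeR unadjusted p = 0.030, adjusted p = 0.33) and 0.05 by genotype entry. Ftl1, Lrp1 and Fth1, the most abundant of the list, had r of -0.01, -0.01 and 0.07 with the beta locus. The summed level of 7 macrophage markers was 548 to 1687 FPKM under the title ApoE-/- and 268 to 903 FPKM in the other 3. By genotype entry it was 338 to 1554 FPKM under Apoe-/- and 268 to 1687 FPKM under Nprc-/-Apoe-/-. By title Csf1r had a log2 fold change of -0.93 and Mrc1 of -0.63 (edgeR unadjusted p = 0.011 and 0.00060, adjusted p = 0.28 and 0.20). By genotype entry their values were -0.23 and -0.17 (edgeR unadjusted p = 0.588 and 0.505). The part of macrophages in the Hmox1 value was not tested.

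Markers of other blood cells were read beside the globins. Of 12 platelet genes 4 were tested, and Pf4 (r = 0.77) and Ppbp (0.78), both chemokines of platelet granules, followed the beta locus, while Itga2b (0.32) and Gp1bb (0.19) did so less. Both of the latter shared a row with other genes. The neutrophil list had 7 tested of 12 genes, with a median r of 0.17. In it Csf3r was called by title (log2 fold change -1.01, edgeR unadjusted p = 0.038, adjusted p = 0.34), and Lcn2 and S100a8 were not. By genotype entry Csf3r had a log2 fold change of -0.27 (edgeR unadjusted p = 0.61). Of the marrow markers, Mpo, Elane, Prtn3 and Ctsg were under 1 FPKM in every library. The 6 B cell markers summed to 21.2 FPKM in ApoE-/- 2, the library richest in globin, and to 0.64 to 3.44 FPKM elsewhere, with Cd79b the only one tested. T cell markers summed to 2.43 to 7.05 FPKM, also highest in ApoE-/- 2. The part of lymphoid tissue or of blood in that library was not tested.

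Vessel wall genes did not follow the globins upward. The 7 endothelial markers summed to 91.3 to 107.9 FPKM, with a median r of 0.22 and no edgeR unadjusted p-value under 0.05. The 8 smooth muscle markers, which include Acta2, Myh11 and Tagln, had a median r of -0.38. By title 7 of them had an unadjusted p-value under 0.05 and were higher, against 6.51% of all tested loci, with log2 fold changes from 0.53 for Tagln to 0.99 for Smtn and edgeR adjusted p-values from 0.26 to 0.36, and by genotype entry 0 did. Their part in the globin values by title was not tested.

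**Figure D5:**
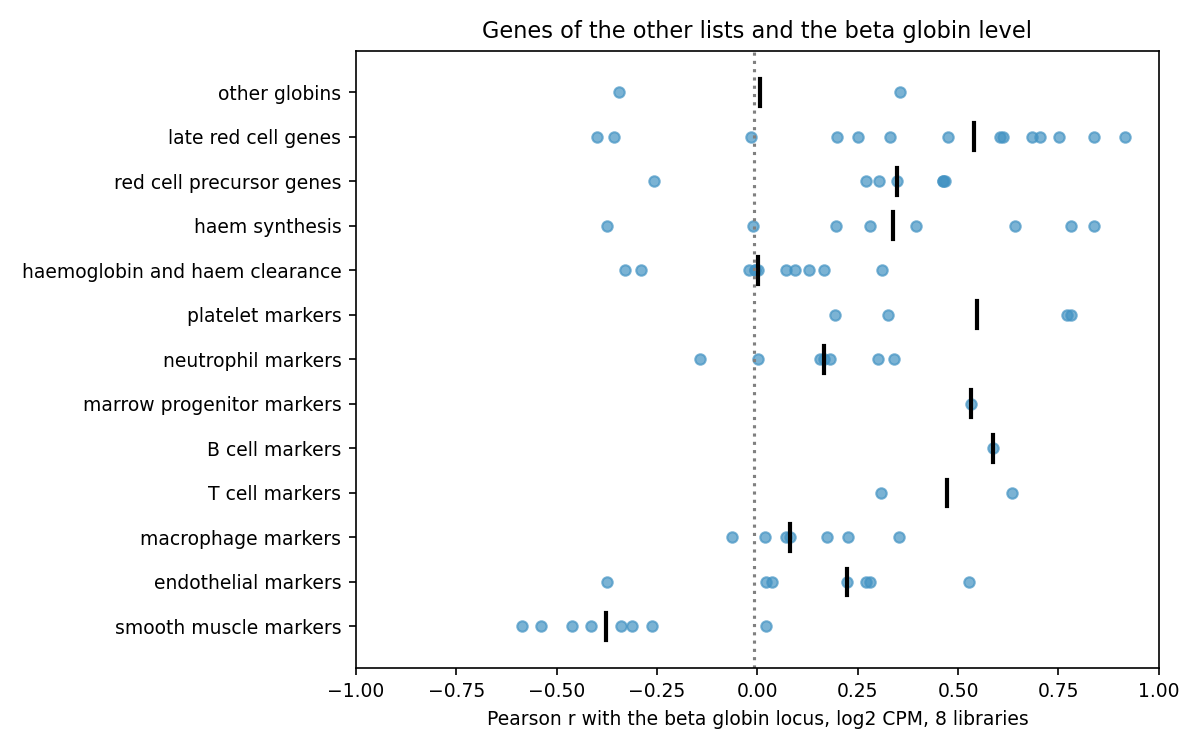
Pearson r with the beta globin locus over 8 libraries (x) of each tested gene (points) in the other lists (y), with black bars at each list's median and a dotted line at the median of all tested loci (-0.01). Late red cell genes centre at 0.54 and smooth muscle markers at -0.38.

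The single genes that followed the tested members most closely were not red cell genes. By Pearson r with the mean standardised log2 CPM of the 3 tested loci over 8 libraries, the closest were Meox2 (0.94), Nrip1 (0.94), Gm44704 (0.93), Smtnl2 (0.92) and Cyp51 (0.92), followed by Ndufb1-ps, Clpx, Svep1, Tcim and Mif4gd (0.90 to 0.88). Among these 10 the widest range of level was that of Meox2, 7.47-fold from lowest to highest library, and the narrowest was that of Clpx, 1.46-fold. The Alas2 row, whose share of counts from Alas2 exons is not known, is among the 3 tested loci. With 8 libraries and 20506 tested loci, such values are a description.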

How the data were processed

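RNA of the entire aorta was measured in 8 libraries. The authors trimmed the reads (cutadapt 1.9 in the submitters' processing notes, which name GRCm38), aligned them by HISAT2 and assembled transcripts by StringTie. The authors deposited raw whole-number counts for each assembled locus. The authors also deposited FPKM values, scaled to transcript length and mapped fragments. How counts were derived and whether strand was used are not given in the sources used here. Members and gene lists were chosen with earlier results of these data known.

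Counts of loci that reached 1 FPKM in 3 or more libraries were tested with edgeR 4.0.16 (TMM, quasi-likelihood, Benjamini-Hochberg over all tested loci) in R 4.3.3, by title and by genotype entry, 5 against 3 libraries each time. The series describes the libraries as aortas of separate mice. The methods give n = 5 per group, and 8 libraries were analysed here. Log2 CPM used a prior count of 2. Exact permutation tests and correlations used scipy 1.17.1, with 4 loci set against the beta locus because the genes of a pair share a row. Alternatives were DESeq2 1.42.0, limma 3.58.1 on log2(FPKM + 1) and log2(FPKM + 0.1), other scalings and filters, a replicate block and each library left out. Named genes were the members, listed genes with an unadjusted p-value under 0.05, the most abundant 3 of each of the red cell, haem, platelet and neutrophil lists, and the 10 loci most like the members. Further genes, among them Ppbp, Fech, Slc25a37, Gata1, Klf1, Gfi1b and Epor, were named after their values were seen, some for their correlation with the beta locus. Few counts limit the precision of Epb42 in every library and of Slc4a1 in NPRC-/-ApoE-/- 2. The table had 0 columns of values without a sample. The results of some listed genes are not reported here.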

Additional observations from a re-analysis of the deposited data

How the results depend on the processing

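The number of member loci called stayed at 0 under every alternative with a filter and in the fit without one, by title and by genotype entry, with the exception of Epb42 without ApoE-/- 1 in the unfiltered fit by genotype entry (-1.60). That leave-one-out fit of Slc4a1 and Epb42 was added after the data were seen. With 5 against 3 libraries and a spread of this size, the intervals limit what can be said. The cause of the changes below was not tested.

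By title, the number of loci called was 712, and 175 with limma on log2(FPKM + 1), 2287 with no filter, 113 at a mean of at least 5 FPKM, and 403 to 1635 with 1 library left out (1635 without NPRC-/-ApoE-/- 1, 403 without NPRC-/-ApoE-/- 3, 404 without NPRC-/-ApoE-/- 2 and 1132 without ApoE-/- 5). By genotype entry it was 95, and 23 with limma on log2(FPKM + 1), 785 with no filter, 7 at a mean of at least 5 FPKM, and 84 to 240 with 1 library left out (240 without ApoE-/- 4, 189 without ApoE-/- 5 and 153 without NPRC-/-ApoE-/- 2). Of the calls by genotype entry, 56.8% were lower in the double knockout, against 40.6% with no filter and 28.6% at a mean of at least 5 FPKM. Members reached an adjusted p-value of 0.46 at the lowest in any edgeR fit that left out a library.

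In the 4 libraries whose labels match, the log2 differences were 0.16 for alpha, 0.045 for beta and 0.14 for Alas2, against negative values by title. By genotype entry the beta value of -0.06 became 0.61 and 0.61 with limma on log2(FPKM + 1) and log2(FPKM + 0.1), and 0.025 at a mean of at least 5 FPKM, a filter that leaves Alas2 without a value. With 1 library left out, the log2 fold changes by title ran from -2.06 to -0.63 for alpha, -1.83 to -0.48 for beta, -0.35 to -0.06 for Alas2, -2.0 to -0.08 for Slc4a1 and -0.88 to 0.69 for Epb42. By genotype entry they ran from -0.34 to 1.13 for alpha, -0.31 to 1.03 for beta, 0.02 to 0.35 for Alas2, -1.0 to 0.38 for Slc4a1 and -1.60 to -0.96 for Epb42. Adding up all loci that carry a symbol gave -1.14 for alpha and -1.16 for beta by title, and 0.20 and -0.06 by genotype entry. Merging the genes of a pair into 1 row gave no further value, since each pair already shares its row.

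The replicate numbers of the titles did not pair the libraries, with correlations of -0.31, -0.11 and 0.01 between same-numbered libraries. A replicate block over the 6 libraries numbered 1 to 3 gave 800 loci called, against 917 in the same libraries without it, and log2 fold changes of -1.22 for alpha, -0.97 for beta and -0.16 for Alas2.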
